A study of Sus scrofa with 16 samples.

Results

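SST and VSTM2A are a pair of pig genes whose promoters carried the strongest peaks of open chromatin called in newborn kidney and in no other newborn tissue. They were selected on that ranking, out of 19560 protein-coding genes of the RefSeq annotation of Sscrofa11.1. All peaks that overlap either gene or lie within 50 kb of it were collected from 8 deposited peak lists, which gave 58 of 798988 peaks. Newborn kidney contributed 12 of them and suckling liver 15, while newborn liver, lung, muscle, spleen, heart and adult liver contributed 6, 7, 3, 7, 1 and 7. These counts are not scaled to list length. Suckling liver (141689 peaks) and kidney (133254) had the longest lists, and the others ran from 57126 in muscle to 120012 in newborn liver.

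Accessible chromatin was profiled by ATAC-seq, in which a transposase inserts adaptors into open DNA, in 16 libraries of bulk tissue from female crossbred pigs. The 6 newborn groups were kidney, heart, liver, lung, skeletal muscle and spleen at day 0 in the labels, and liver was also taken at day 28 (suckling) and day 180 (adult). The study describes the animals as full-sib hybrids of Berkshire and Tibetan pigs that were a day old at the newborn stage, and all 6 newborn tissues as taken from the same 2 pigs. No treatment or genetic change was named for any group. Each group had 2 replicates, which the authors merged into 1 list of consensus peaks.

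Open chromatin at a promoter or in an intron marks DNA that regulatory proteins can reach, but it is not a measure of transcription. SST encodes somatostatin, a peptide hormone of pancreatic delta cells, gut endocrine cells and neurons that inhibits the release of other hormones. It acts through G protein-coupled receptors and is cut from a precursor by prohormone convertases. VSTM2A encodes a secreted protein with an immunoglobulin-like V-set domain that has been linked to the commitment of fat cell precursors.

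Strength is given below as the −log10 p of the peak call in each replicate. This value grows with sequencing depth, so it was ranked only within a list. The irreproducible discovery rate (IDR) of a peak is low where its rank is high and alike in both replicates. A weak peak can thus have a high IDR even where its replicate values are alike. The lists hold no read counts, so the number of reads behind a peak is unknown from them. The study gives read totals per library, which differ between tissues and were not used here, and a peak missing from a list means only that none was called. In bulk tissue, fewer cells of a type and less accessibility per cell cannot be told apart.

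SST lies on the minus strand at chr13:125337560-125338742. Its annotated model is short, with 1183 bp, and begins at the first coding base, because no UTR is annotated. The kidney peak lay at chr13:125338109-125338832 and was 724 bp wide. It reached from 90 bp upstream to 633 bp downstream of the annotated start and covered all 138 bp of exon 1, but 68.5% of it lay in intron 1. Its summit, 449 bp downstream of the start, was intronic.

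VSTM2A lies on the plus strand at chr9:138990480-139017965 and has 5 annotated start sites between 138990480 and 138990633. Its kidney peak at chr9:138990769-138991749 was 981 bp wide and began within exon 1. Of this peak, 90% lay in intron 1. The summit was 961 bp downstream of the first start site and 808 bp downstream of the last. A promoter was taken to reach from 2.2 kb upstream to 500 bp downstream of a start site. The peak counted as a promoter peak because its 5′ part overlapped this interval, while the summit itself fell outside it.

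The sequence under each kidney summit is shown because both strongest points of accessibility fell in first introns rather than at the starts. Each is 300 bases of the Sscrofa11.1 reference, read 5′ to 3′ in the direction of the gene, with selected motif matches in capitals. The SST stretch (chr13:125338144-125338443, minus strand) held 1 match of the motifs searched, the FOXA consensus TGTTTAC, which is marked. In the VSTM2A stretch (chr9:138991291-138991590, plus strand) the marked letters are the reverse complement of a CEBP match, TTGCNNAA.
SST intron 1: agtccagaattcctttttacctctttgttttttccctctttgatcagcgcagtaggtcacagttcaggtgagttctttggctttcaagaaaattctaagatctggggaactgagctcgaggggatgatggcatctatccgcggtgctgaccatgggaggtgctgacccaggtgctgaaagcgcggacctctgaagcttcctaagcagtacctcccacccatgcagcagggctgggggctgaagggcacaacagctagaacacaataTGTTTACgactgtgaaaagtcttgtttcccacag
VSTM2A intron 1: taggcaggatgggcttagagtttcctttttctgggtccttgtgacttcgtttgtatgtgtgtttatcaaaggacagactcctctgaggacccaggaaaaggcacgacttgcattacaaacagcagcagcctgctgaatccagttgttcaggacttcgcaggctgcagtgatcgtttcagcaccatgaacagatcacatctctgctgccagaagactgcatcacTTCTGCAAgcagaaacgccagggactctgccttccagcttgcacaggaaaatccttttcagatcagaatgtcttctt

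A cyclic AMP response element (CRE) in the somatostatin promoter is a textbook binding site of CREB. The palindrome TGACGTCA, which reads the same on both strands, was present in the pig sequence 149 to 156 bp upstream of the annotated start. It is shown in 30 bases (chr13:125338880-125338909, minus strand) because the kidney peak stopped 59 bp short of it, with the summit 598 bp away. In the 8 lists, 0 peaks overlapped the CRE.
SST CRE: gcctcctagtcTGACGTCAgagagagagtt

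The same palindrome occurred in 2% of 45994 annotated promoters, in 1.98% of the 300-base windows around kidney promoter summits and in 0.236% of those around kidney-only promoter summits. The FOXA consensus, searched on both strands, occurred in 2.63%, 2.43% and 2.84% of the same sets, and the CEBP consensus in 8.88%, 7.09% and 9.16%. The VSTM2A stretch also held 1 homeodomain core, TAAT, on its reverse strand. That core was present in 52.5% of kidney-only promoter summit windows. These matches are descriptions of letters, and no binding was measured.

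Both summit windows were poor in CpG dinucleotides compared with the start sites of the same genes. Around the SST summit GC content was 50.3% and the ratio of observed to expected CpG was 0.369, against 59.7% and 0.976 in the window from 250 bases before to 50 after the start. Around the VSTM2A summit the values were 48.3% and 0.286, against 84.7% and 1.15 at the first start. The VSTM2A start had a higher GC content than 98.9% of all annotated promoters. Kidney-only promoter summits as a set had a median GC content of 56% and a median CpG ratio of 0.306, while all kidney promoter summits had 64.7% and 0.726. Thus the CpG ratio under both members lay near the median of kidney-only summits, above 60.2% of them for SST and 45.9% for VSTM2A.

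Replicate values were examined next. At SST the kidney peak had a −log10 p of 54.2 in replicate 1 and 70.7 in replicate 2, with an IDR of 0.000257. At VSTM2A the values were 51.5 and 74.3, with an IDR of 0.000245. Both peaks were called in both kidney libraries, with summits 1 bp apart between replicates at either gene. In the kidney list 97.2% of the 133254 peaks were weaker than the SST peak, and 96.9% were weaker than the VSTM2A peak. Neither peak overlapped a peak of newborn heart, liver, lung, muscle or spleen.

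Kidney-only promoter peaks numbered 1692 of 18766 kidney promoter peaks (9.02%) at 1542 genes. By the smaller replicate value, SST ranked 1 and VSTM2A ranked 2 among them, which is the choice that defined the pair and is given without a test. With all lists held to an IDR of at most 0.05 they ranked 37 and 42, and with a narrower promoter, from 1 kb upstream to 100 bp downstream, VSTM2A ranked 846. The median of that value was 5.43 and the 99th percentile was 26.5. VSTM2A, just inside the selection, had 51.5, and HECW1, just outside, had 48.1 in replicate 1 and 53.5 in replicate 2. HECW1 encodes a ubiquitin ligase. It was followed by RGS5, a regulator of G protein signalling (49 and 46.8), and GAP43, a growth cone protein of neurons (46.4 and 51.2). When replicate 2 alone was ranked, VSTM2A kept rank 2 and SST took rank 3.

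**Figure D1:**
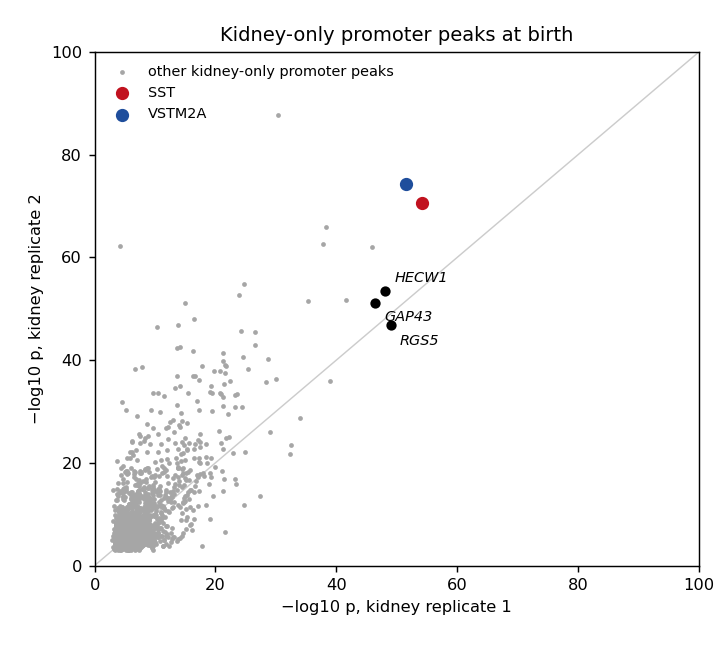
Each point is 1 of the 1692 promoter peaks called in newborn kidney and in no other newborn list, at its −log10 p in kidney replicate 1 (horizontal) and replicate 2 (vertical), with equality as a grey line. SST (red) and VSTM2A (blue) lie apart from most peaks at 54.2 and 70.7 and at 51.5 and 74.3, ahead of the 3 genes ranked next, shown in black.

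Among all kidney promoter peaks, including those shared with other tissues, the members were less extreme. SST ranked 2723 and VSTM2A 2994 of 18766, and the strongest promoter peak reached 230. The position of their summits was also uncommon. A summit 400 bp or more downstream of the nearest start was found in 9.93% of kidney-only promoter peaks and in 9.88% of all kidney promoter peaks. Summits more than 500 bp downstream, as at VSTM2A, made up 5.79% and 6.84%. The median summit position relative to the start was −505 bp in kidney-only promoter peaks and −35 bp in all kidney promoter peaks, where a minus sign means upstream.

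A weaker consensus peak spanned the annotated starts of VSTM2A in kidney, but neither replicate peak covered all of them. It lay at chr9:138990379-138990648 and was called in no other newborn tissue. Replicate 1 spanned 138990379-138990528 and replicate 2 spanned 138990521-138990648. Their summits lay at −95 and 57 bp from the first start, 152 bp apart. The consensus summit, 19 bp upstream of that start, was only their midpoint. The −log10 p of this peak was 4.03 in replicate 1 and 5.51 in replicate 2, and its IDR was 0.617. Only 9.68% of kidney peaks were weaker, so the start itself and the intron stood near opposite ends of the same list.

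Both genes had a peak at the intronic site in suckling liver as well. At SST the suckling peak (chr13:125338206-125338468) was 263 bp wide, lay wholly in intron 1 and had a −log10 p of 22.3 in replicate 1 and 29 in replicate 2, with an IDR of 0.00316. Of the 141689 suckling peaks, 86% were weaker. At VSTM2A the suckling peak (chr9:138991155-138991550) was 396 bp wide, with values of 5.39 and 17.9 and an IDR of 0.398. It was weaker than most of its list, with 37.6% of peaks below it. It began 22 bp past the end of the promoter interval, so only SST counted as having a promoter peak in suckling liver.

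Summit positions were compared between kidney and suckling liver. A consensus summit lay within 1 bp of the midpoint of its replicate summits in 90.4% of the peaks of either list, so it can fall where no replicate has its summit. At SST the consensus summit was the same base, 125338293, in both lists, and the 4 replicate summits fell on 125338293 or 125338294. At VSTM2A the kidney replicate summits fell on 138991441 or 1 bp away. The suckling replicate summits lay 31 bp to either side of that base, so the suckling consensus summit is the same base only as their midpoint. Of the 326 kidney-only promoter peaks that overlapped a suckling peak, 5 shared the consensus summit base (1.53%), 47 had it within 10 bp (14.4%), and the median distance was 56 bp. Across all 69706 overlapping kidney peaks, 3.45% shared the base. These shares compare consensus summits, which are mostly such midpoints, and have no replicate error.

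**Figure D2:**
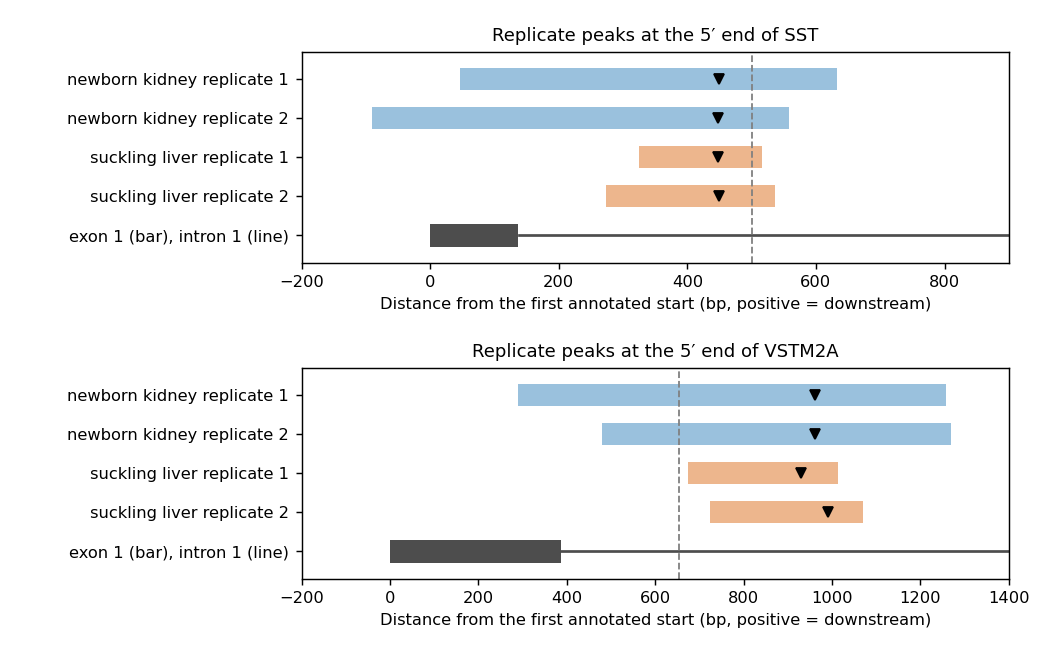
Bars show the peak called in each replicate of newborn kidney (blue) and suckling liver (orange) against the distance in bp from the first annotated start of each gene, and triangles mark the summits. A dashed line marks the downstream end of the promoter interval, which the VSTM2A suckling peaks do not reach, and all 4 SST summits stand in intron 1 within 1 bp of each other.

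No peak was called at either intronic site in newborn or adult liver, so both suckling peaks were called at 1 liver age. Such peaks made up 26.7% of suckling peaks and 8.43% of suckling promoter peaks. Kidney-only promoter peaks overlapped a suckling-only peak in 254 of 1692 cases (15.0%), and kidney-only peaks at any position in 12.0%. The kidney peaks of SST and VSTM2A are among these 254. Counting any liver peak of the age, 19.3% of kidney-only promoter peaks overlapped a suckling peak and 6.44% an adult one.

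The overlap with suckling liver was compared across newborn tissues, since peaks of a single tissue could recur there from any organ. Suckling-only liver peaks overlapped 12% of kidney-only peaks and 10.9% of spleen-only peaks. For lung, heart and muscle the shares were 4.99%, 4.9% and 3.04%. Within promoters the shares were 15% for kidney, 14.8% for spleen, 7.47% for heart, 5.2% for lung and 2.44% for muscle. Kidney and spleen thus stood close together and above the other tissues. The lists differ in length, each pools 2 libraries, and the differences have no replicate error.

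**Figure D3:**
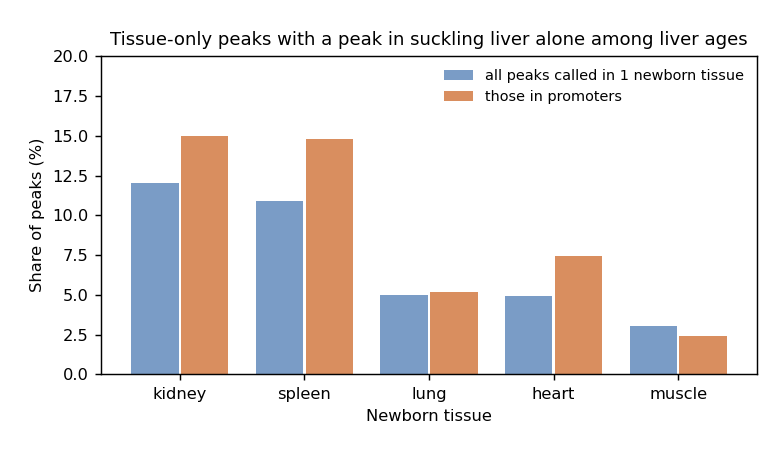
Bars give the share, in percent, of peaks called in a single newborn tissue that overlap a liver peak called at the suckling age and at no other liver age, for all such peaks (blue) and for those in promoters (orange). Kidney (12% and 15%) and spleen (10.9% and 14.8%) have the highest shares, and muscle (3.04% and 2.44%) has the lowest.

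The surroundings of the genes were then described. The SST window of 101 kb held 40 peaks in 15 regions, of which 3 were called in 5 or more lists. The VSTM2A window of 127 kb held 18 peaks in 12 regions, none of which was called in more than 3 lists. With all 8 lists pooled, an IDR of 0.05 or lower was reached by 13 of the 40 peaks near SST and by 1 of the 18 near VSTM2A. The 1 peak near VSTM2A was the kidney peak in intron 1. Over whole lists the share ran from 19.1% in newborn liver to 50.3% in adult liver, with 33.8% in kidney and 33.7% in suckling liver.

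Kidney had 5 peaks in the SST window and 7 in the VSTM2A window, of which 2 and 5 were kidney-only, against 34.6% of all kidney peaks. All 5 kidney regions near SST also had a peak in suckling liver, and 3 had one in newborn liver and 3 in adult liver. Near VSTM2A, suckling liver shared 2 of the 7 kidney regions and adult liver 0. Over the whole list, 52.3% of kidney peaks overlapped a suckling liver peak and 40.2% an adult one. Regions called in kidney and suckling liver and in no other list numbered 2 near SST and 1 near VSTM2A. The second near SST lay 30.2 kb downstream, with kidney values of 5.97 and 9.04 (IDR 0.275) and suckling values of 8.58 and 6.58 (IDR 0.339).

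Upstream of SST the peaks belonged mainly to liver. A region about 7 kb upstream was called in kidney and at all 3 liver ages. Its −log10 p was 16.5 and 22.7 in kidney, 21 and 27.2 in newborn liver, 12.5 and 33.8 in suckling liver, and 14.7 and 20 in adult liver. The 4 consensus summits lay between −7138 and −7127 bp from the start, so this site was alike in position across lists, but newborn liver had an IDR of 0.251 whereas the other lists had 0.0269 or lower. Near 10.7 kb upstream a region was called in newborn and suckling liver, and 3 regions farther out were called in suckling and adult liver alone.

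Next to SST lies RTP2, whose product helps carry chemosensory receptors to the cell surface, 16.3 kb away. An intron of RTP2 held a peak in 6 lists, with values of 58.3 and 77.5 in suckling liver, 43.2 and 71.5 in adult liver, 24.1 and 16.3 in kidney, and 16.6 and 20.6 in muscle. Newborn liver (4.46 and 4.21) and spleen (3.15 and 8.72) had weak peaks there. BCL6, a transcriptional repressor of germinal centre B cells, lies 38.5 kb away. Downstream of BCL6, about 37 kb from SST, a region was called in 6 lists but not in kidney or heart. In adult liver it had 325 and 224, and in newborn liver it had 215 in replicate 1 but 3.55 in replicate 2. The RTP2 promoter had a peak in 0 lists and the BCL6 promoter in all 8. Heart had 0 peaks in the SST window, and lung had 3 lung-only peaks there.

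**Figure D4:**
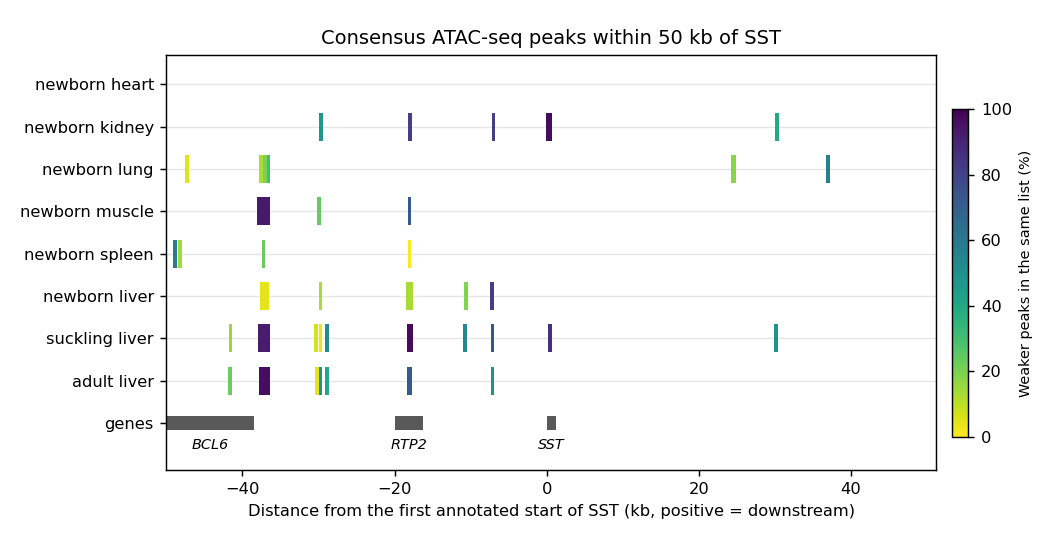
Rows are the 8 lists and bars are consensus peaks against the distance in kb from the annotated SST start, with gene bodies at the bottom and colour giving the share of weaker peaks in the same list. Kidney (97.2%) and suckling liver (86%) have a peak at SST, the regions in RTP2 and next to BCL6 are called in 6 lists each, and short peaks are widened to stay visible.

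VSTM2A has no annotated neighbour within 50 kb, and the nearest gene, SEC61G, is 110 kb away. Its window was sparse. Muscle and adult liver had 0 peaks in it, and heart, lung and newborn liver had 1 each. Kidney had 4 peaks more than 50 kb downstream of the first start, with smaller values of 3.49 to 6.33 and an IDR of 0.229 or higher. One of them, at 51.5 kb, overlapped the single heart peak (6.59 and 6.97). Within the gene, suckling liver had a further intronic peak at 10.3 kb, with values of 6.97 and 7.21 and an IDR of 0.229. Upstream of the gene, lung (11.4 and 12.2), spleen (6.38 and 11.2) and suckling liver (5.79 and 7.87) shared a region at chr9:138960604-138961110. Apart from the peak in intron 1, no kidney peak in the window was stronger than more than 49.7% of its list.

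**Figure D5:**
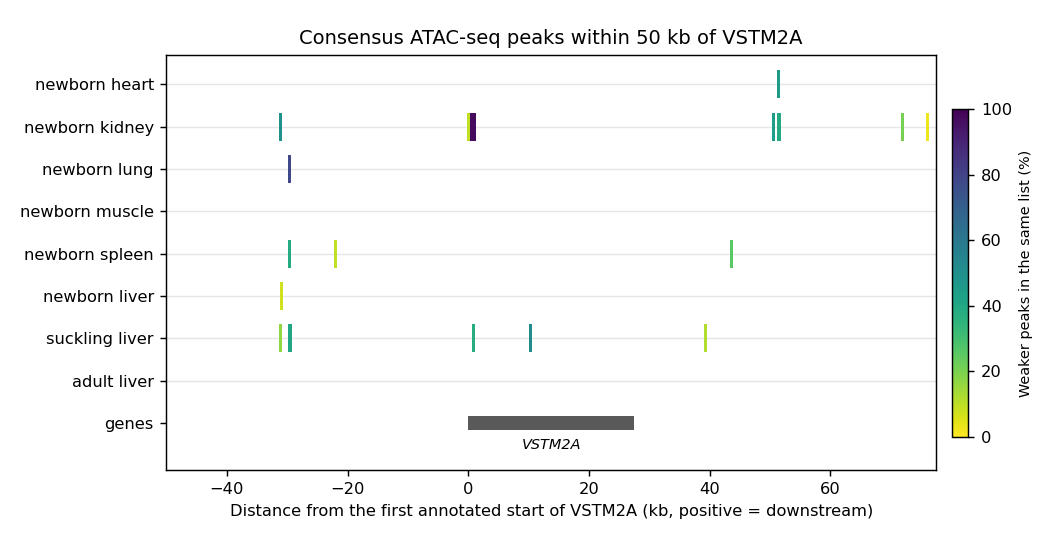
Rows are the 8 lists and bars are consensus peaks against the distance in kb from the first annotated VSTM2A start, with the gene body at the bottom and colour giving the share of weaker peaks in the same list. The kidney peak in intron 1 (96.9%) is the darkest bar, adult liver and muscle have none, and short peaks are widened to stay visible.

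Genes of the somatostatin system were examined with a list of 16, of which 15 could be matched and SSTR4 was not. Promoter peaks were called at 13 of the 15 in kidney, 13 in newborn liver, 11 in lung, 8 in heart, 7 in muscle, 8 in spleen, 11 in suckling liver and 7 in adult liver. Over all genes the shares with a promoter peak were 75.2%, 73.6%, 70.5%, 68.0%, 61.5%, 68.8%, 74.9% and 69.7% in the same order. The counts of the list were above these shares in kidney, newborn liver and lung and below them in the other 5 lists. A kidney-only promoter peak was present at 6 of the 15, among them SSTR2, SSTR3, PCSK1, FURIN and CPE, against 7.89% of all genes. At these 5 named genes the peaks were weak, with smaller values of 3.21 to 6.46 and an IDR of 0.309 or higher.

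Among the receptors, SSTR3 had a promoter peak in kidney alone (3.21 and 6.36, IDR 0.617). SSTR1 had one in 6 lists (12.6 and 18 in kidney) and SSTR2 in 5, while SSTR5 had none. CORT, which encodes the related peptide cortistatin, had a promoter peak in newborn and suckling liver but not in kidney. Of the processing enzymes, PCSK2, PCSK1 and CPE had stronger kidney promoter peaks that were shared with other tissues. The prohormone convertase gene PCSK2 had 79.9 and 118 in kidney and peaks in 4 lists, and PCSK1 had 44.4 and 52.1 and peaks in 3. CPE, which trims the peptides, had 33 and 33 and peaks in 6 lists.

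Transcription factors known from somatostatin-producing cells were called more widely. CREB1, PAX6 and HHEX had promoter peaks in all 8 lists, ISL1 in the 6 newborn lists alone, and PDX1 in 5 lists with kidney values of 6.98 and 6.83. FURIN, CREB1 and PAX6 also had a suckling-only promoter peak, which 7.93% of all genes had. SST itself had promoter peaks in 2 of the 8 lists, fewer than any of these factors. Of the 4 matched relatives of VSTM2A, VSTM2B had a promoter peak in no list, VSTM4 in 6, VSTM2L in 7 and VSTM5 in 8. VSTM2L had kidney values of 59.8 and 105, shared with other tissues, and a separate kidney-only peak of 5.99 and 8.48.

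Genes with the same promoter pattern were named by their state in the 8 lists. A promoter peak in kidney and suckling liver alone, as at SST, was found at 97 genes, SST included. Peaks anywhere in the promoter counted, so kidney and suckling liver need not share a site as they did at SST. Ordered by the smaller kidney value, SST came 2 among the 97 genes, after LOC110260591 (74.5 and 107), whose kidney peak also reached a peak of another newborn list outside the promoter. HECW1, RGS5, KCNJ6, a potassium channel gene, and LOC110261739 followed. In suckling liver LOC110260591 had 68 and 99.6 and an IDR of 0.000204, while these other 4 had smaller values of 3.72 to 5.84 and an IDR of 0.245 or higher. The kidney-only promoter peaks of HECW1 and KCNJ6 given here overlapped no suckling peak. A promoter peak in kidney alone, as at VSTM2A, was found at 300 genes. VSTM2A came 2 after TP53I3, a quinone oxidoreductase gene (78.1 and 115), and was followed by LOC102165028 (50.2 and 65), GAP43, the cell adhesion gene SDK1 (39 and 35.9) and LOC100736733. The kidney peaks of TP53I3 and LOC102165028 also reached a peak of another newborn list outside the promoter, so neither was kidney-only.

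The tissue labels were checked against marker genes. Kidney had a promoter peak at 9 of 11 kidney markers and a kidney-only one at 6, namely NPHS1, SLC12A1, AQP2, PAX2, CUBN and SLC34A1, whereas UMOD and SLC12A3 lacked a promoter peak in kidney. The shares over all genes, 75.2% and 7.89%, show that the former count is near the background. The kidney-only marker peaks differed in strength. Those of AQP2 (4.92 and 5.7), NPHS1 (9.05 and 7.14) and CUBN (8.72 and 27.5) had an IDR of 0.229 or higher. Those of SLC12A1 (17.4 and 19.9), SLC34A1 (23.3 and 16.8) and PAX2 (11.5 and 33.1) had an IDR of 0.0316 or lower. Newborn, suckling and adult liver had promoter peaks at 7, 8 and 8 of 8 liver markers, and ALB lacked one in newborn liver. Over all genes the liver shares were 73.6%, 74.9% and 69.7%. Of 11 kidney markers, 3 had a promoter peak in suckling liver, 3 in newborn liver and 2 in adult liver, and 0 had a suckling-only one.

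Because somatostatin is a product of islet, gut and nerve cells, markers of other cell types were counted in the same way, to be read against 75.2% of all genes with a promoter peak in kidney, 74.9% in suckling liver, 7.89% with a kidney-only one and 7.93% with a suckling-only one. Of 10 pancreatic endocrine markers, which include PDX1 of the list above, 5 had a promoter peak in kidney and 4 in suckling liver, and 0 had a kidney-only or suckling-only one. INS, PPY, IAPP and NEUROD1 had a promoter peak in none of the 8 lists, nor did PNLIP among 5 matched exocrine markers, of which CPA1 and PTF1A had kidney-only peaks. The strongest of these had 7.72 and 6.53 at CPA1 (IDR 0.282) and 7.3 and 11 at PTF1A (IDR 0.123). The CPA1 promoter also had peaks in heart and muscle, and the PTF1A promoter in lung. Of 8 adrenal markers, 2 had a promoter peak in kidney and 3 in suckling liver. STAR and CYP11A1, genes of steroid synthesis, had both a kidney-only and a suckling-only promoter peak. The kidney-only values were 9.31 and 4.07 at STAR (IDR 0.617) and 8.36 and 18.9 at CYP11A1 (IDR 0.123). STAR also had a promoter peak in muscle. CYP11A1 also had promoter peaks in lung and adult liver, and a stronger kidney one (31.3 and 24.8, IDR 0.00447) that was not kidney-only. CYP17A1, TH and DBH had no promoter peak in any list. Gut markers, not all of them endocrine, had promoter peaks at 2 of 6 in kidney and 2 in suckling liver, in both cases CCK and VIL1. Neuronal markers had them at 3 of 5 in both lists. The part of such cells in the SST and VSTM2A peaks was not tested.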

How the data were processed

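According to the methods of the study and the processing notes, the authors aligned paired-end reads to Sscrofa11.1 with Bowtie2, filtered them with SAMtools 1.3.1, called peaks per replicate with MACS2 and merged replicates by IDR. The deposited lists give the −log10 p of each replicate peak, read here from the replicate signal columns, and the smaller of both, which matched in 100% of peaks. The deposited score is a scaled form of the IDR, which was computed here from the deposited −log10 of the global IDR. Lists were not filtered on IDR. Mapping filters and the fragment options named for MACS2 could move edges and summits.

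Starts were converted to positions counted from 1. A kidney-only peak shared no base with any peak of the remaining 5 newborn lists, and a suckling-only peak none with newborn or adult liver. The 15 motifs were searched on both strands. Overlaps were tested on simulated data. Python 3.11.15, pandas 2.3.3, numpy 2.4.6 and pysam 0.24.0 were used. No test was made, since each list merges 2 libraries and the genes were chosen on these values. The members, gene lists, motifs and alternatives were chosen with earlier results of these data known. Genes named were the members, genes within 50 kb, the pathway and marker lists, the 3 genes ranked next and up to 5 genes with the same promoter pattern. SEC61G, the nearest gene to VSTM2A, was named after its position was seen. Alternatives changed the window, promoter, IDR limit, overlap, list length and the replicate whose value was ranked. Transcriptome data were not used here. Values of some genes of these lists are not reported here.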

Additional observations from a re-analysis of the deposited data

How the results depend on the processing

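Of 34 alternatives over 8 values, 15 left the value within the spread allowed (1.5 times for a count) and 19 moved it. With 20 kb on either side, kidney peaks numbered 3 near SST (5 at 50 kb) and 2 near VSTM2A (7), of which 1 and 2 were kidney-only. With 100 kb, 12 kidney peaks and 4 kidney-only ones were counted near SST. With all lists restricted to an IDR of at most 0.05, SST had 3 kidney peaks, and VSTM2A had 1, which was kidney-only. SST then ranked 37 and VSTM2A 42 among kidney-only promoter peaks, because weak peaks of the other tissues no longer removed stronger kidney peaks from the set. With the 57126 strongest peaks of every list, SST had 3 kidney peaks, 1 of them kidney-only, and VSTM2A had 1, also kidney-only. Ranking the same consensus peaks by the value of 1 replicate gave ranks from 1 to 3 for SST and 2 for VSTM2A, and SST ranked 3 by replicate 2. Both replicates were still needed for a peak to be in the lists.

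A narrower promoter, from 1 kb upstream to 100 bp downstream, left SST with a promoter peak in 1 list instead of 2, since its suckling peak begins farther downstream. It moved VSTM2A to rank 846, because only the weak peak at its start then counted. A promoter reaching 1 kb downstream, chosen after seeing the data, gave VSTM2A promoter peaks in 2 lists instead of 1. Depth limits every missing peak, and none was measured as absent. No paired analysis was possible because the values come from no test. The newborn tissues share their 2 pigs, but the peaks kept in a list are those matched between its replicates.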
